A study of Mus musculus with 9 samples.

Results

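The 3 libraries of the CD49f-low gate, of 9 libraries in all, were contrasted with the average of the CD49f-neg and CD49f-high gates. The cells came from the dermis of newborn mice with the genotype Krt14 cre;Rosa26-mTmG, which all 9 libraries share. In these mice a Cre recombinase under the promoter of Krt14, a keratin of basal keratinocytes, switches a membrane fluorescent reporter, so that cells of the keratinocyte lineage can be told from the rest. The sorted cells were labelled mesenchymal, were taken directly from skin without culture, and were divided by flow cytometry into cells negative, low and high for CD49f, with 3 libraries a gate, numbered 1 to 3. The labels do not say whether libraries of a gate came from separate animals, so p-values here speak only of how far these libraries spread. Expression was measured by RNA sequencing and deposited as FPKM (fragments per kilobase of transcript, scaled to the mapped fragments of the library), a unit that corrects for transcript length. Rows with at least 1 FPKM in at least 3 of the 9 libraries were kept, which left 20523 of 84809 rows, 12852 of them with a gene symbol.

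CD49f is the integrin α6 subunit, encoded by Itga6, a receptor for laminin in basement membranes. In skin it is best known on basal keratinocytes, and it is also carried by vascular and nerve-associated cells. Melanoblasts, the neural crest derived precursors of pigment cells, migrate through the developing skin and enter hair follicles. There they make melanosomes, organelles in which melanin is built on a protein scaffold and handed to hair cells. The dermal papilla is the mesenchymal core of the hair follicle. It forms from a condensate of fibroblasts and exchanges Wnt, BMP, Notch and Hedgehog signals with the epithelium above it.

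The FPKM of the libraries summed to 423745 to 543842, and the 10 most abundant rows held 47.5% to 61.3% of that sum. From the steps between low FPKM values, library depth was 0.940 to 1.08 times that of CD49f-neg 1, while the absolute depth was not derived. The 3 CD49f-low libraries held 19214 to 19573 rows of at least 1 FPKM, above the 16354 to 17620 of CD49f-neg and the 17452 to 18294 of CD49f-high. The fibroblast genes of the label were present in the low gate, where Col1a1, Col1a2, Col3a1, Dcn, Lum, Thy1 and the other members of a list of 10 dermal mesenchyme genes summed to 5739 to 6980 FPKM. The same sum was 13828 to 16892 FPKM in CD49f-neg and 4390 to 6335 FPKM in CD49f-high. Of 16 immune cell markers, Cd68, a lysosomal protein of macrophages, alone passed the filter. It was not called in the contrast defined below (adjusted p = 0.143, limma) and passed with the replicate number as a block (adjusted p = 0.0148). Ptprc, the pan-leukocyte marker, had a mean of 0.00359 FPKM in CD49f-low.

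All differences below are differences of log2(FPKM + 1), on which a change in a low gene looks smaller than it is. A row was called when limma, a linear model that pools the spread over all rows, gave a Benjamini-Hochberg adjusted p under 0.05 for the contrast. Of the 20523 rows, 2600 (12.7%) were called, 2064 (10.1%) higher and 536 (2.61%) lower in CD49f-low. With the replicate number as a block, 4886 rows were called, 4033 higher and 853 lower. The median contrast over all rows was 0.17, so that the low gate stood slightly above the others across the whole table. Scaling each library by the median of ratios moved that median to -0.01 and the share of higher calls from 79.4% to 49.4%, with 906 higher and 929 lower.

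A peak was a row called higher in which all 3 CD49f-low libraries lay above all 6 others, and a trough was the opposite. There were 1560 peaks (7.60% of rows) and 116 troughs (0.565%). Whether called or not, all 3 low libraries lay above all others in 2762 rows (13.5%) and below them in 171 (0.833%). Against each other gate separately, 821 rows (4.0%) were called higher in both tests and 42 (0.205%) lower in both. Low against CD49f-neg alone gave 3160 calls (15.4%) and low against CD49f-high 3367 (16.4%), from the same low libraries. Another 423 called rows had a low-gate mean above both other means with overlapping libraries, and 81 rows were called higher although the low mean lay between the others. Among lower calls, 105 lay below both means with overlap and 315 lay between them. Of the 11991 rows with exactly 1 gene symbol, 851 were peaks (7.10%) and 85 were troughs (0.709%), while the 7671 rows with no symbol held 670 peaks (8.73%) and 26 troughs (0.339%). The prominence, the low-gate mean minus the nearer of the other gate means, had a median of 0.46 over those 851 peaks and -0.39 over those 85 troughs. It reached at least 1 in 139 peaks and at least 3 in 10 peaks. It went to at least 1 below the nearer gate in 5 troughs, Cdh6, Cpe, Galnt16, Ppp1r14a and Adamtsl1, the last named after its values were seen. Of the peaks, 275 of 1560 had passed the filter through the CD49f-low libraries alone, and these had to be higher there.

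**Figure D1:**
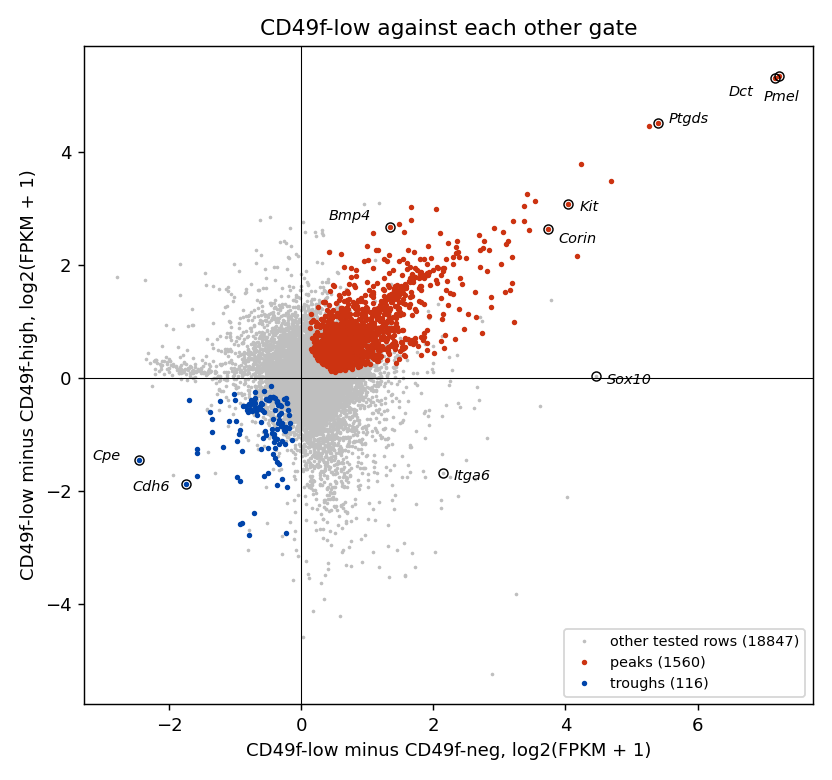
Each point is 1 of the 20523 tested rows, placed by the difference of CD49f-low from CD49f-neg (horizontal, log2(FPKM + 1)) and from CD49f-high (vertical, same scale). Both axes use the same 3 low libraries, so the tilt of the cloud is not a result. The 1560 peaks (red) reach 7.24 and 5.35 at Pmel, while the 116 troughs (blue) stay within 3 units of 0. Sox10 and Itga6 were not peaks.

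The sorted antigen itself did not peak in the low gate. Itga6 measured 0.710, 0.433 and 0.283 FPKM in the CD49f-neg libraries, 6.05, 4.38 and 6.09 in CD49f-low and 15.9, 19.6 and 24.1 in CD49f-high. The 3 gates did not overlap and stood in the order of the sort, with an adjusted p of 7.36e-05 for low against negative and 0.000282 for low against high (limma). The contrast of the low gate with the average of both others was 0.23 ± 0.16 (SE, adjusted p = 0.341, limma). Its partner subunits Itgb1 and Itgb4 were likewise not called, at contrasts of -0.12 and -0.83, while Itgb4 was called lower without CD49f-high 1 (adjusted p = 0.000253, limma).

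The highest peaks of the low gate were genes of the melanosome. Of 19 genes of melanosome structure and melanin synthesis, all tested, 16 were called higher and all 16 of these were peaks, beside 10.1% and 7.60% of all rows. The median contrast of the 19 was 2.22, against 0.17 over all rows, and none was called lower in limma, with 0 lower at an unadjusted p under 0.05. Of the 16 peaks, 7 had passed the filter through the CD49f-low libraries alone. The summed FPKM of the 19 genes was 467, 569 and 538 in CD49f-low, against 21.0 to 22.9 in CD49f-neg and 36.0 to 47.1 in CD49f-high. In bulk RNA, fewer cells of a type and less RNA per cell cannot be told apart. The labels call all 3 gates mesenchymal, whereas melanocytes derive from the neural crest, and the share of pigment cells in each gate was not measured here.

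Pmel, which forms the fibrils on which melanin is laid down, was at 186, 222 and 190 FPKM in the CD49f-low libraries. It was at 0.345, 0.310 and 0.306 FPKM in CD49f-neg and at 5.23, 6.38 and 1.56 FPKM in CD49f-high. All 9 values kept the gates apart, and CD49f-high 3 was the lowest of its gate. The contrast was 6.29 ± 0.28 (SE, adjusted p = 3.02e-06, limma). Dct, the dopachrome tautomerase of eumelanin synthesis, was at 138, 189 and 182 FPKM in CD49f-low, at 0.228, 0.124 and 0.161 FPKM in CD49f-neg and at 4.02, 4.75 and 1.65 FPKM in CD49f-high. Its contrast was 6.24 ± 0.22 (SE, adjusted p = 7.79e-07, limma), and the order of the gates was the same as for Pmel. Mlana, a melanosome membrane protein, had 36.0, 37.9 and 45.3 FPKM in CD49f-low, was listed at 0 in CD49f-neg 2 and 3, and had 0.565 to 1.10 FPKM in CD49f-high.

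Tyrp1, the tyrosinase-related oxidase, had 25.3, 28.4 and 24.6 FPKM in CD49f-low, at most 0.105 FPKM in CD49f-neg and 0.993 to 1.74 FPKM in CD49f-high. Slc45a2 and Slc24a5, transporters of the melanosome, and Gpnmb, a glycoprotein related to Pmel, had means of 10.2, 10.2 and 13.4 FPKM in the low gate. None of these 3 exceeded a mean of 0.689 FPKM in either other gate. Tyr, the rate-limiting oxidase of melanin synthesis, had lower levels, at 4.13 ± 0.56 FPKM (SD, n = 3) in CD49f-low, 0.00310 ± 0.0023 in CD49f-neg and 0.107 ± 0.045 in CD49f-high. Trpm1, a cation channel of melanocytes, had 3.98 FPKM and Oca2, which sets melanosome pH, 2.52 FPKM in the low gate. Gpr143, the receptor mutated in ocular albinism, had 2.67 FPKM there and each of the 3 CD49f-neg libraries listed it at 0.

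The machinery that carries melanosomes was graded in how far it peaked. Mlph, the linker between the melanosome and its motor, had a contrast of 1.88, and Myo5a, the motor, 0.89, with 7.94 FPKM in the low gate against 3.62 and 4.09. Rab27a, which shares its row with a predicted gene and is therefore uncertain, had a contrast of 2.26. Mreg, which regulates melanosome transfer, had 0.80, and Hps4, a subunit of an exchange factor for organelle Rab proteins, 0.48. The 3 members that were not called were Rab38, Rab32 and Ap3b1, of which Rab32 was called higher without CD49f-neg 1 (adjusted p = 0.0329, limma). Rab38 had 1.23, 4.86 and 5.11 FPKM in CD49f-high, a range that contained the 1.43 to 1.76 FPKM of CD49f-low. With the replicate number as a block, Ap3b1 was called (adjusted p = 0.0410, limma), from 0.0717 without it. The call of Hps4 was lost under median-of-ratios scaling, under quantile normalization and without each of the CD49f-low libraries in turn.

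The starts of 4 melanosome peaks are shown so that their letters can be read. They are the 250 bases before the RefSeq start of the gene, on the gene's strand in build GRCm38.p6, for the 4 peaks of largest prominence that the promoter table held. Pmel, Mlana and Slc45a2 were not in it. Capitals mark CATGTG or its reverse complement CACATG, the hexamer that the pigment cell regulator MITF is known to bind. The windows lie at chr14:118052247-118052496 (minus strand) for Dct, chr4:80833963-80834212 (plus) for Tyrp1, chr6:49036268-49036517 (plus) for Gpnmb and chr2:125067877-125068126 (plus) for Slc24a5.
Dct: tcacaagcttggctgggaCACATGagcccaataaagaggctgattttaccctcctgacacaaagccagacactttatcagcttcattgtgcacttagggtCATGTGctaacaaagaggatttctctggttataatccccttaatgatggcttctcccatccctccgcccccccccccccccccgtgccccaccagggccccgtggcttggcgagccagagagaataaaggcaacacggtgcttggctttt
Tyrp1: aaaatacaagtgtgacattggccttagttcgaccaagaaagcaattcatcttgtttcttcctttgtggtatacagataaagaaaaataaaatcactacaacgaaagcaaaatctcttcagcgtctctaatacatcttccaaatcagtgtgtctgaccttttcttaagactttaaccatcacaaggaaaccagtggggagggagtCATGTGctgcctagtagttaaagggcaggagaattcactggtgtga
Gpnmb: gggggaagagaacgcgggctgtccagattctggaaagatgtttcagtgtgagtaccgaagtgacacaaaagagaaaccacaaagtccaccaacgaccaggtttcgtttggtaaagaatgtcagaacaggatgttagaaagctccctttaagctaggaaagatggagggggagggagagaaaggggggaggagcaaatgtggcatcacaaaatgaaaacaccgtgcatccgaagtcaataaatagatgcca
Slc24a5: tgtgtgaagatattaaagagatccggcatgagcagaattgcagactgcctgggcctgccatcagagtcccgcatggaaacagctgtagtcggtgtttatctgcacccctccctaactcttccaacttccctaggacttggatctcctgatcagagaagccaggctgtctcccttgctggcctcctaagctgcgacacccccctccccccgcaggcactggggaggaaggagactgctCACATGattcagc

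Counted from the start, the hexamer began at -232 and -150 in Dct, at -46 in Tyrp1 and at -13 in Slc24a5, and the Gpnmb window had none. Of 12 melanosome peaks in the promoter table, 6 had at least 1 match, among them also Tyr, Trpm1 and Oca2. Over all 27025 genes of that table, 13.8% had one, and over all 32851 windows 12.3%. A match describes the letters only, and binding was not measured in these data.

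**Figure D2:**
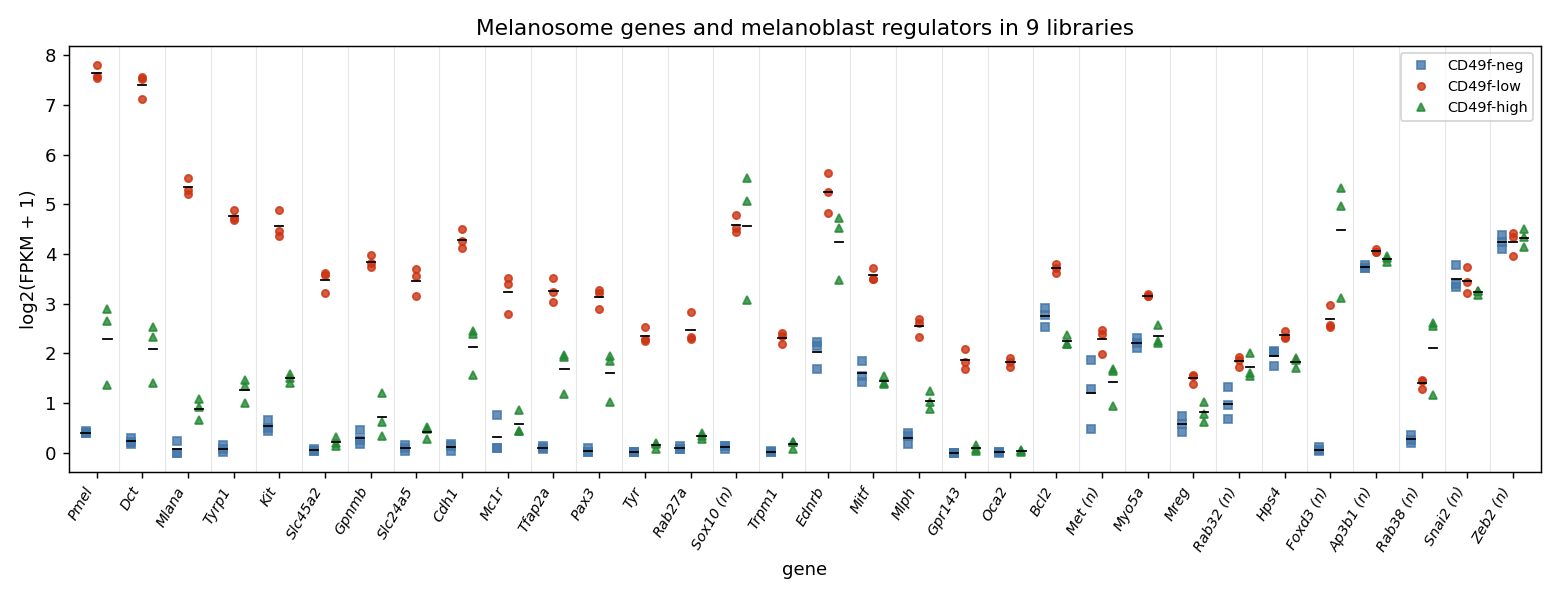
The log2(FPKM + 1) of the tested melanosome genes and melanoblast regulators is plotted for each of the 9 libraries, ordered by the contrast, with a black line at each gate's mean. Genes marked (n) were not peaks. The red points of CD49f-low lie above both other gates for Pmel to Oca2 apart from Sox10, where the 3 CD49f-high libraries span 7.46 to 44.9 FPKM.

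Most tested regulators of the melanoblast also peaked in CD49f-low, while the order of the other gates varied between members. The summed FPKM of the list was 167 to 216 in CD49f-low, 39.1 to 44.5 in CD49f-neg and 69.7 to 152 in CD49f-high. Of 14 such genes 13 were tested, 9 were called higher and 8 were peaks, beside 10.1% and 7.60% of all rows. Their median contrast was 2.11, against 0.17 over all rows. Kit, the receptor that melanoblasts need to migrate and survive, was at 19.5, 21.2 and 28.6 FPKM in CD49f-low, at 0.350 to 0.581 FPKM in CD49f-neg and at 1.62 to 2.00 FPKM in CD49f-high. The 3 gates did not overlap, and the contrast was 3.56 ± 0.13 (SE, adjusted p = 7.97e-07, limma). Mitf, the master regulator of pigment cells, had 10.2, 10.3 and 12.2 FPKM in the low gate. It had 1.66 to 2.59 FPKM in CD49f-neg and 1.61 to 1.91 FPKM in CD49f-high, which overlapped each other. Mc1r, the melanocortin receptor, had 5.94 to 10.4 FPKM in CD49f-low and at most 0.821 FPKM elsewhere. It had passed the filter through the low gate alone, so it had to be higher there.

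Genes of the wider neural crest kept more expression in CD49f-high. Pax3 had means of 7.82 FPKM in CD49f-low and 2.15 in CD49f-high, Tfap2a 8.65 and 2.33, and both were under 0.1 FPKM in CD49f-neg. Ednrb, the endothelin receptor of melanoblasts, had 27.5, 37.2 and 48.7 FPKM in CD49f-low and 10.2, 25.6 and 21.9 in CD49f-high. As for any peak, its low libraries did not overlap the others, but low against high alone did not pass (difference 1.00, adjusted p = 0.0683, limma). Sox10, a transcription factor of melanoblasts and Schwann cells alike, had 20.7, 21.9 and 26.7 FPKM in CD49f-low and 7.46, 32.5 and 44.9 in CD49f-high. It was called higher in the contrast through CD49f-neg, where it was under 0.1 FPKM. The low and high means differed by 0.03 (adjusted p = 0.976, limma), and the call was lost without CD49f-low 3. Foxd3, in a row shared with a predicted gene, had 4.79 to 6.82 FPKM in CD49f-low and 7.68, 30.4 and 39.1 in CD49f-high, and was not called, except with a pseudocount of 0.1 (adjusted p = 0.0432, limma). Snai2 and Zeb2 were not called, and Met, at an adjusted p of 0.0583, passed with the replicate number as a block (adjusted p = 0.00435, limma) and without CD49f-neg 1 (adjusted p = 0.0219). Bcl2, a survival factor of melanocytes, was at 12.1 FPKM in the low gate against 5.72 and 3.75.

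In sum, markers of Schwann cells and keratinocytes were highest in CD49f-high rather than in CD49f-low. The 19 Schwann cell markers summed to 117 to 124 FPKM in CD49f-low, 79.3 to 108 in CD49f-neg and 129 to 417 in CD49f-high. Of 17 tested Schwann markers 2 were called higher, Sox10 and Erbb3, and 3 lower, among them Gfra3 and Cnp. The share called higher was near the 10.1% of all rows, while 2.61% of all rows were called lower. Of 16 tested keratinocyte markers 2 were called higher, a share near the 10.1% of all rows. These were the cadherins Cdh1 and Cdh3, and both were peaks, beside 7.60% of all rows. Cdh1, which melanoblasts share with keratinocytes, had 16.3, 18.0 and 21.7 FPKM in CD49f-low and 1.96 to 4.43 in CD49f-high. The keratinocyte markers in sum were higher in CD49f-high, at 59.8 to 94.6 FPKM, than in CD49f-low at 47.3 to 48.9 and in CD49f-neg at 5.07 to 6.58. The defining keratin Krt5, in a row shared with another gene, had a mean of 0.216 FPKM in CD49f-neg, of 1.69 in the low gate and of 8.97 in CD49f-high. The part of these cell types in the peaks was not tested.

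Genes of the dermal papilla and its condensate formed the second large group of peaks. Of 28 genes 27 were tested, 23 were called higher and 19 were peaks, beside 10.1% and 7.60% of all rows. Their median contrast was 1.47, against 0.17 over all rows. In limma none was called lower, and 0 were lower at an unadjusted p under 0.05. Their summed FPKM was 560, 656 and 725 in CD49f-low, 276 to 345 in CD49f-neg and 210 to 295 in CD49f-high. Unlike the melanosome genes, most were also expressed in the other gates. Over the 19 peaks, the median level of a CD49f-neg library was 18.0% to 30.9% of the low-gate mean and that of a CD49f-high library 12.7% to 22.3%. Over the 16 melanosome peaks the same medians were 0.271% to 0.423% and 1.69% to 4.03%. Of the 19 papilla peaks 1, and of the 16 melanosome peaks 7, had passed the filter through the CD49f-low libraries alone. Those had to be under 1 FPKM in every other library, and all of these genes were chosen as peaks. The difference between the medians of the lists is thus partly fixed by how the genes were chosen. The melanosome sum was also highest in CD49f-low. It was lower in CD49f-neg than in CD49f-high, whereas the papilla sums of these 2 gates overlapped. The part of pigment cells in the papilla result was not tested.

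Some papilla genes were lowest in CD49f-neg and intermediate in CD49f-high. Corin, a serine protease of the dermal papilla that acts in the agouti pathway, had 12.5, 21.0 and 19.4 FPKM in CD49f-low. It had 0.296 to 0.418 FPKM in CD49f-neg and 0.763 to 2.83 in CD49f-high (contrast 3.19 ± 0.25, SE, adjusted p = 7.5e-05, limma). Sox2, which marks condensates of guard, awl and auchene follicles, had 5.65, 7.48 and 9.16 FPKM in CD49f-low, 0.0977 to 0.164 in CD49f-neg and 1.43 to 3.22 in CD49f-high. Alpl, the alkaline phosphatase by which papillae are stained, had means of 10.1 FPKM in CD49f-low, 0.339 in CD49f-neg and 1.78 in CD49f-high. Prdm1, a repressor found in papillary and condensate fibroblasts, had 18.4, 19.3 and 20.6 FPKM in CD49f-low, 2.23 to 2.36 in CD49f-neg and 4.69 to 8.98 in CD49f-high. Notum, an enzyme that inactivates Wnt ligands, was at 7.41 FPKM against 0.188 and 1.30.

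Others were lowest in CD49f-high. Crabp1, a retinoic acid binding protein, had 67.1, 32.9 and 40.4 FPKM in CD49f-low, 11.9 to 16.1 in CD49f-neg and 2.92 to 5.78 in CD49f-high. Bmp4, a ligand of the papilla, had 15.2, 14.8 and 13.9 FPKM in CD49f-low, 4.02 to 6.31 in CD49f-neg and 0.752 to 1.89 in CD49f-high. Lef1, the transcription factor of Wnt signalling, had 7.51, 6.67 and 9.88 FPKM in CD49f-low, 2.06 to 3.52 in CD49f-neg and 0.836 to 1.38 in CD49f-high. As these 3 genes are peaks, no library of the low gate overlapped the others by definition. Rspo3, Dkk1 and Frzb had the same order of means. In a contrast of high with negative, which uses no low library, 5 of the 19 peaks were called higher in CD49f-high, 6 higher in CD49f-neg and 8 neither. Of the 16 melanosome peaks, 5 were higher in CD49f-high, 0 in CD49f-neg and 11 neither.

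A further set stood at about the same level in both other gates. Sox18, a factor of condensates that is also made by endothelial cells, had 66.3, 79.6 and 93.9 FPKM in CD49f-low, 13.5 to 26.6 in CD49f-neg and 15.4 to 25.6 in CD49f-high. Cxcr4, a chemokine receptor of condensates, had 34.9, 37.7 and 44.9 FPKM in CD49f-low against 5.37 to 12.8 and 4.97 to 8.72. Inhba, the activin βA subunit, had 21.6, 28.5 and 31.5 FPKM against 2.16 to 2.34 in CD49f-neg and 2.30 to 6.42 in CD49f-high. Enpp2, Prom1, Ndp and Fgf10 were peaks at 12.5, 3.89, 4.94 and 7.09 FPKM. For Sox18, endothelial markers are given beside it: of 10 tested, Kdr was called higher, Cdh5 and Esam lower, and the sum of all 14 was 22.7 to 24.1 FPKM in CD49f-low, 18.1 to 20.8 in CD49f-neg and 39.4 to 57.7 in CD49f-high. Over all rows 10.1% were called higher and 2.61% lower.

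Not every papilla gene peaked. Vcan, a proteoglycan of the papilla, was a peak at 46.9 FPKM against 32.6 and 26.4, but lost its call under 7 of the 16 alternatives, both scalings among them. Wif1, a secreted Wnt inhibitor, had 48.3 to 58.9 FPKM in CD49f-low, 55.1 to 77.8 in CD49f-neg and 7.68 to 12.2 in CD49f-high, and was called higher with a low mean between the others. The Trps1 row, shared with a microRNA, lay between the means in the same way. Hhip and Ptch1 were called without being peaks. Fgf7, Tbx18, Gli1 and Igfbp4 were not called. With the replicate number as a block, Gli1 (adjusted p = 0.00776) and Igfbp4 (adjusted p = 0.0144, limma) passed, as did Gli1 without CD49f-high 2 and Igfbp4 without CD49f-low 1. Igfbp4 had its highest mean in CD49f-high, at 91.0 FPKM against 67.1 in CD49f-low.

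**Figure D3:**
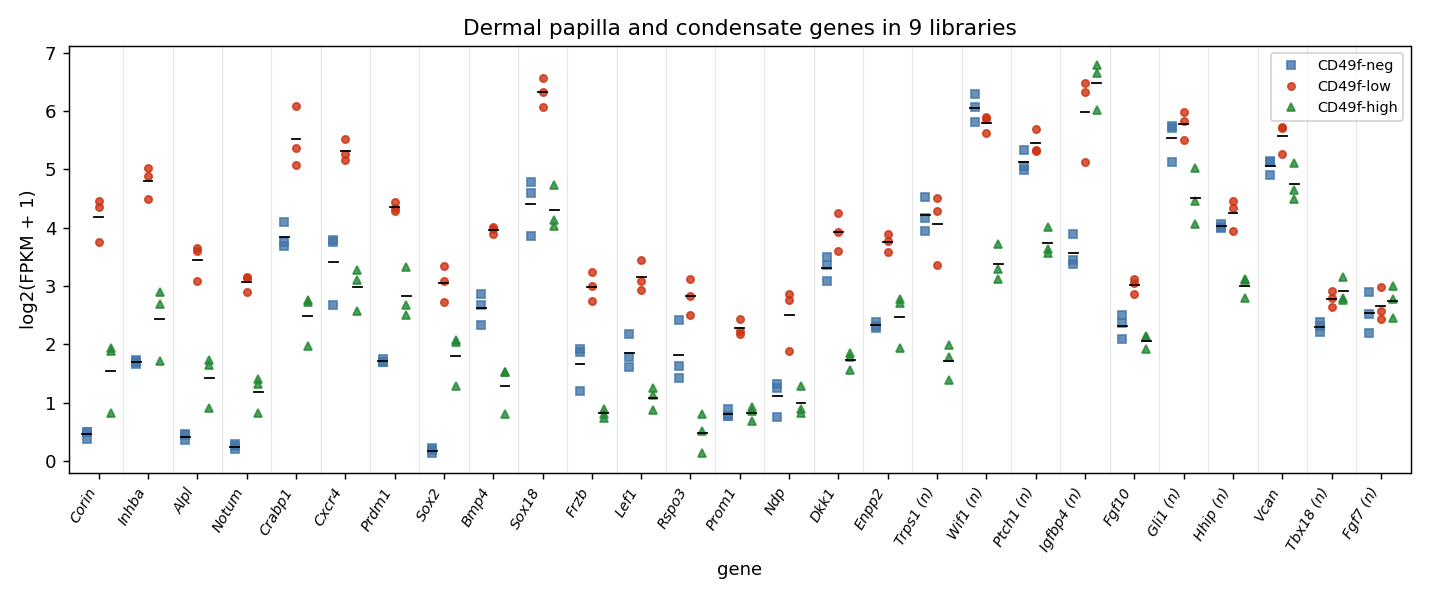
The log2(FPKM + 1) of the 27 tested dermal papilla and condensate genes is plotted for each of the 9 libraries, ordered by the contrast, with a black line at each gate's mean and (n) after genes that were not peaks. CD49f-low (red) is highest from Corin to Enpp2, while the lower of the other gates is CD49f-neg for Corin and Sox2 and CD49f-high for Crabp1 and Bmp4.

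Wnt genes were well represented. Of 34 tested members 18 were called higher and 15 were peaks, beside 10.1% and 7.60% of all rows, and the median contrast was 0.69. None was called lower in limma, with 2 lower at an unadjusted p under 0.05. Under median-of-ratios scaling 15 were called higher, 1 was called lower and 9 were peaks. Over all 20523 rows that scaling gave 4.41% higher, 4.53% lower and 662 peaks. By role, the peaks included the ligands Wnt5a, Wnt10a and Wnt11, the agonists Rspo1 and Rspo3, the receptor Fzd10, the secreted antagonists Dkk1, Dkk2, Frzb and Notum, and the targets or feedback genes Lef1, Nkd2, Apcdd1 and Sp5. Fzd10 had 7.49, 11.1 and 11.8 FPKM in CD49f-low, 2.23 to 3.14 in CD49f-neg and 1.02 to 1.97 in CD49f-high. Frzb was at 7.03 FPKM against 2.24 and 0.763. Both ligands and antagonists were thus among the peaks. These peaks are listed in full, and those other than Notum, Lef1, Fzd10, Frzb, Rspo3 and Dkk1 were named after their values were seen. The last was Ctnnb1, β-catenin, in a row shared with another gene. Of the 15 peaks, 1 had passed the filter through the CD49f-low libraries alone.

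In the BMP and activin pathway, all 9 members called higher of 29 tested were peaks, beside 10.1% higher and 7.60% peaks over all rows. None was called lower in limma, with 2 lower at an unadjusted p under 0.05. The ligands led. Bmp7 had 11.9, 14.9 and 17.7 FPKM in CD49f-low, 1.10 to 1.52 in CD49f-neg and 0.983 to 2.76 in CD49f-high (contrast 2.60 ± 0.20, SE, adjusted p = 6.55e-05, limma). Bmp3, an atypical ligand that can oppose other BMPs, had 16.2, 16.7 and 20.2 FPKM against 1.76 to 3.27 and 2.04 to 4.50. The other peaks were Bmp4, Inhba, Gdf10, the inhibitors Nog, Bambi and Bmper, and the target Msx2. Gdf10 and the inhibitors and target were named after their values were seen. The median contrast of the 29 was 0.27, beside the 0.17 of all rows. Of the 9 peaks, 1 had passed the filter through the CD49f-low libraries alone.

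In the Notch pathway, 7 of 16 tested members were called higher and 4 were peaks, beside 10.1% and 7.60% of all rows. The median contrast of the 16 was 0.27, near the 0.17 of all rows. Dll1, a Notch ligand, had 10.5, 12.9 and 13.8 FPKM in CD49f-low, 0.380 to 0.604 in CD49f-neg and 0.817 to 1.90 in CD49f-high (contrast 2.78 ± 0.17, SE, adjusted p = 1.71e-05, limma). The Notch targets Hey1 and Hey2 were at 11.8 and 8.64 FPKM in the low gate. Hey2 was also at 5.14 FPKM in CD49f-high against 1.23 in CD49f-neg. Lfng, a modifier of Notch receptors, was the remaining peak. The receptor Notch1 lay between the means, at 7.69 FPKM in CD49f-low and 9.55 in CD49f-high, and Notch3, a receptor of mural cells, was called lower, at 13.3 FPKM against 158 in CD49f-high. Lfng and Notch3 lie outside the naming rule and were named after their values were seen. Under median-of-ratios scaling, 3 were called higher and 2 lower, beside 4.41% and 4.53% of all rows.

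Hedgehog response genes did not peak. Of 12 tested, 4 were called higher, among them Ptch1, Hhip and Gli3, and 0 were peaks, since each overlapped at least 1 library of another gate. Over all rows 10.1% were called higher and 7.60% were peaks. Ptch1, the receptor and a target of the pathway, was at 43.0 ± 7.0 FPKM (SD, n = 3) in CD49f-low, 34.1 ± 4.4 in CD49f-neg and 12.5 ± 2.4 in CD49f-high. The difference from CD49f-neg was 0.32 (adjusted p = 0.2, limma) and that from CD49f-high 1.71 (adjusted p = 0.000143). Under median-of-ratios scaling, 2 of the 12 were called higher and 0 lower, beside 4.41% and 4.53% of all rows.

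Of the 15 named peaks of largest prominence, 8 belonged to the melanosome or melanoblast lists, and several others were in no list of these lineages. Ptgds, the prostaglandin D2 synthase, had 40.0 to 45.7 FPKM in CD49f-low, 0.0201 to 0.0963 in CD49f-neg and 0.386 to 1.49 in CD49f-high. It was the only peak of 12 tested prostaglandin genes, a share near the 7.60% of all rows (contrast 4.95 ± 0.17, SE, adjusted p = 7.78e-07, limma). Mcoln3, a channel of late endosomal membranes, had 14.6, 20.0 and 22.2 FPKM in CD49f-low and at most 0.648 FPKM in any other library. It had thus passed the filter through the low gate alone. Npy, neuropeptide Y, had 9.23, 13.6 and 17.9 FPKM in CD49f-low and at most 1.35 elsewhere. Tfap2c, a paralog of Tfap2a, had 13.1, 14.4 and 15.7 FPKM against 0.422 to 0.883 and 0.398 to 1.96. Alx4, a homeobox factor of mesenchyme and hair follicle development, had 21.7, 34.8 and 40.3 FPKM in CD49f-low, 1.17 to 2.64 in CD49f-neg and 2.61 to 7.85 in CD49f-high. As these 5 genes were chosen as peaks, their lowest CD49f-low library lay above the highest of the 6 others by definition.

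Papillary dermis and basement membrane genes were divided. Of 14 tested papillary genes 9 were called higher and 6 were peaks, beside 10.1% and 7.60% of all rows, with a median contrast of 0.97. Dpp4, a marker of upper dermal fibroblasts named after its values were seen, was called lower. The collagens Col23a1 and Col13a1 led, with 16.6 and 4.39 FPKM in CD49f-low, 4.63 and 0.734 in CD49f-neg and 1.54 and 0.377 in CD49f-high. Prdm1 and Crabp1 are on this list as well as on the papilla list. Of 21 tested basement membrane genes 8 were called higher and 5 lower, and 4 were peaks, Lamc3, Frem1, Npnt and Lama2, beside 10.1% higher, 2.61% lower and 7.60% peaks over all rows. The median contrast of the 21 was -0.02. Under median-of-ratios scaling 5 were higher and 5 lower, with 3 peaks and 3 troughs. Over all 20523 rows that scaling gave 4.41% higher and 4.53% lower, with 662 peaks and 365 troughs. Lamc3, the laminin γ3 chain, had 52.7, 47.3 and 53.0 FPKM in CD49f-low, 5.74 to 12.2 in CD49f-neg and 6.01 to 13.1 in CD49f-high. Frem1, a matrix protein under the epidermis, had 12.8 to 16.8 FPKM against 5.54 to 6.23 and 1.87 to 2.63. Npnt, nephronectin, a ligand of the α8 integrin, was at 3.47 FPKM against 0.333 and 0.968. Itga8, its receptor subunit, was called higher at 10.1 FPKM against 3.41 and 7.16, with overlapping libraries.

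Myogenic genes were higher in the low gate, at low levels. Of 18 genes of skeletal muscle and satellite cells 8 were tested, 7 were called higher and 5 were peaks, beside 10.1% and 7.60% of all rows. Of the 8 tested, 2 had passed the filter through the low gate alone. Both are among the 5 peaks, and they had to be higher there. Myod1 and Myf5, the determination factors of muscle, had 2.05 to 3.09 and 1.12 to 1.97 FPKM in CD49f-low and were at a listed 0 in each CD49f-neg library. Myog, which drives differentiation, had 8.23, 5.15 and 4.35 FPKM in CD49f-low, at most 0.0798 in CD49f-neg and 0.445 to 1.33 in CD49f-high. Chodl, a C-type lectin of muscle, and Cdh15, a cadherin of satellite cells that lies outside the naming rule, were the other peaks. The sum of the 18 genes was 34.9 to 48.7 FPKM in CD49f-low, 4.86 to 6.15 in CD49f-neg and 15.1 to 16.7 in CD49f-high. Of 9 tested cartilage and bone genes 6 were called higher and 2 were peaks, beside 10.1% and 7.60% of all rows. The peaks were Runx2, the master regulator of osteoblasts, at 3.93 FPKM against 0.861 and 1.71, and Ibsp, bone sialoprotein, at 3.46 against 0.163 and 0.275. Ibsp had passed the filter through the low gate alone, so it had to be higher there. Sp7, another osteoblast factor, was called at 2.69 FPKM with overlapping libraries and lost the call without CD49f-low 2 or 3.

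Troughs were fewer than peaks, at 116 against 1560, and under median-of-ratios scaling at 365 against 662. The deepest was Cdh6, a type II cadherin, with 2.94, 2.74 and 2.36 FPKM in CD49f-low, 7.75, 14.6 and 12.5 in CD49f-neg and 7.92, 15.6 and 15.6 in CD49f-high. The other gates overlapped each other and, as in any trough, none of their libraries reached the low gate (contrast -1.81 ± 0.24, SE, adjusted p = 0.00126, limma). Cpe, carboxypeptidase E of the secretory pathway, had 23.5, 35.6 and 33.5 FPKM in CD49f-low, 118, 209 and 203 in CD49f-neg and 82.3, 75.7 and 97.0 in CD49f-high. Here the order was negative, high, low, with a contrast of -1.95 ± 0.21 (SE, adjusted p = 0.000374, limma). Galnt16, a glycosyltransferase that starts O-glycans, had 9.51, 10.2 and 8.28 FPKM in CD49f-low, 27.7 to 32.3 in CD49f-neg and 20.0 to 33.7 in CD49f-high.

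Ppp1r14a, an inhibitor of myosin phosphatase, had 3.87 to 6.14 FPKM in CD49f-low against 13.5 to 18.6 and 10.9 to 15.9. Vstm4, an immunoglobulin domain protein, had 11.1 to 14.8 against 28.1 to 40.9 and 21.1 to 30.5. Thbd, thrombomodulin, had 5.83 to 8.42 against 13.0 to 15.2 and 11.5 to 24.0. These were followed by transcription and growth factor genes at smaller steps. Nfib, a nuclear factor I gene, was at 9.20 FPKM against 15.4 and 14.4, and Tgfb3, a TGF-β ligand, at 6.99 against 13.3 and 10.3. Gpc4, Olfml2b, Mrgprf, Cd248, Rarres2, Nrep and Ndn completed the 15, with contrasts of -0.52 (Rarres2) to -1.15 (Olfml2b). Of the 15 named troughs, 12 kept their call in all 16 alternatives. Gpc4 lost it without CD49f-low 2 or 3, Rarres2 without CD49f-low 1 or 3, and Cd248, a marker of stromal cells, without CD49f-low 1 or 3 and with no filter.

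**Figure D4:**
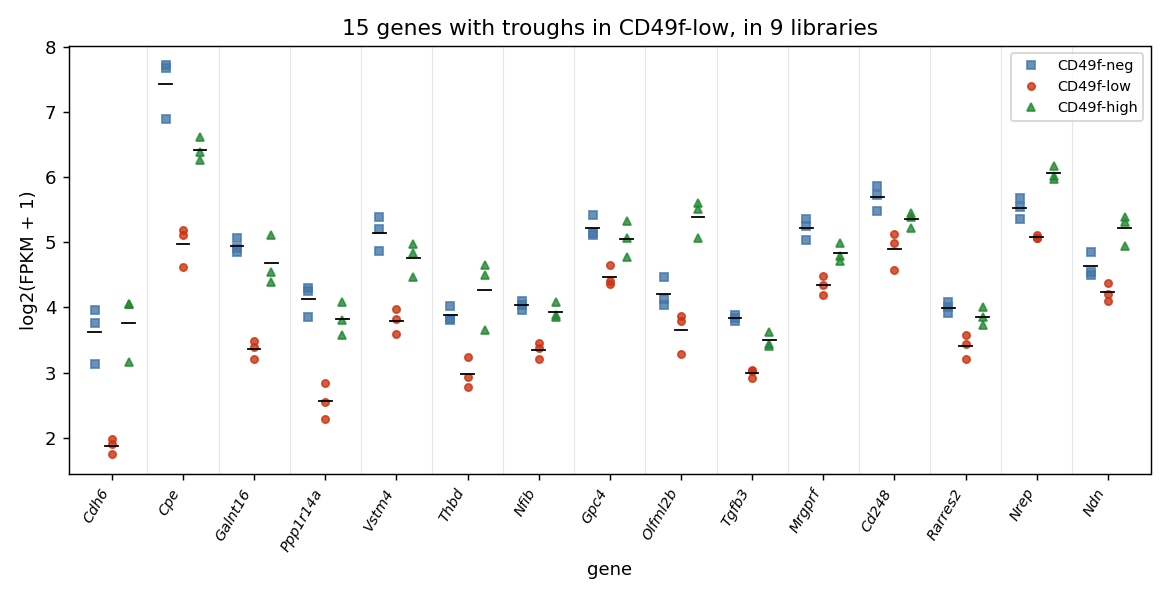
The log2(FPKM + 1) of the 15 named troughs is plotted for each of the 9 libraries, ordered by prominence, with a black line at each gate's mean. The vertical axis does not start at 0. By the definition of a trough the 3 CD49f-low points (red) lie below the other 6 in every gene, by the widest margin in Cdh6 and Cpe and by a narrow one in Cd248 and Ndn.

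Most pericyte markers and some smooth muscle markers were called lower in the contrast, and few of them were troughs. Of 14 tested pericyte markers 11 were called lower, and 1, Kcnj8, was a trough, beside 2.61% lower and 0.565% troughs over all rows. Vtn had a mean of 0.045 FPKM in the negative, 0.369 in the low and 14.2 in the high gate, and Abcc9, a subunit of potassium channels, 2.50, 2.21 and 37.7. Pdgfrb, the PDGF receptor of pericytes, had 19.9, 17.8 and 110 FPKM. The pericyte sum was 99.0 to 150 FPKM in CD49f-low and 114 to 138 in CD49f-neg, which overlapped, and 736 to 1240 in CD49f-high. Of 15 tested smooth muscle markers 6 were called lower, among them Des and Mylk, and 2 higher, beside 2.61% and 10.1% of all rows. The smooth muscle sum was 94.6 to 155 FPKM in CD49f-low, 48.0 to 62.7 in CD49f-neg and 431 to 824 in CD49f-high. Against CD49f-neg alone 6 of these 15 were called higher and 0 lower, and against CD49f-high alone 1 higher and 10 lower. Of the 14 pericyte markers, 6 were called higher and 1 lower than CD49f-neg, and 0 higher and 12 lower than CD49f-high. Over all rows these tests called 15.4% and 16.4%, in either direction. Myocd, the co-activator of smooth muscle genes, was a trough, and Npnt, given above, a peak. Kcnj8 and Myocd were named after their values were seen.

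The bulk matrix of the dermis was lower in CD49f-low than in CD49f-neg and overlapped CD49f-high. The fibroblast matrix genes summed to 8351 to 9616 FPKM in CD49f-low, 17760 to 21142 in CD49f-neg and 6058 to 8687 in CD49f-high. Of 10 dermal mesenchyme genes Pdgfrb and Dcn were called lower and Pdgfra, in a row shared with a microRNA, higher, beside 2.61% and 10.1% of all rows. Dcn, a small proteoglycan of collagen fibrils, had 116 ± 18 FPKM (SD, n = 3) in CD49f-low, 118 ± 19 in CD49f-high and 297 ± 42 in CD49f-neg. It thus differed from CD49f-neg (difference -1.35, adjusted p = 0.000847, limma) and not detectably from CD49f-high (-0.01, adjusted p = 0.961). Dcn lost the call of the contrast without CD49f-low 2 or 3, and the Pdgfra row lost its call in 12 of 16 alternatives. Of 29 fibroblast matrix genes 3 were called higher, a share near the 10.1% of all rows, and 4 lower. Median-of-ratios scaling turned this to 0 higher and 12 lower, beside 4.41% and 4.53% of all rows in that setting. With the replicate number as a block, 4 were higher and 7 lower, beside 19.7% and 4.16% of all rows.

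Lists of general cell functions depended on the scaling. The shares over all rows were 10.1% higher, 2.61% lower and 7.60% peaks in the table as deposited. They were 4.41% higher and 4.53% lower under median-of-ratios scaling, and 19.7% higher and 4.16% lower with the replicate number as a block. Of 30 cell cycle genes 8 were called higher and 6 were peaks, among them the Top2a row at 23.2 FPKM against 10.7 and 16.5. Under median-of-ratios scaling 1 was called and 0 were peaks, and with the replicate number as a block 26 were called higher. Of 23 cholesterol synthesis genes 8 were called higher and 7 were peaks, such as Sc5d at 5.86 FPKM against 4.07 and 2.58 and Cyp51 at 11.3 against 7.04 and 7.41. Median-of-ratios scaling left 1 and the block gave 16. Of 23 lysosome genes 3 were called higher, a share near that of all rows, and 1 was called lower, Lipa, the lysosomal acid lipase, which was a trough. Median-of-ratios scaling turned this to 0 higher and 2 lower, both troughs, and the block to 7 higher and 1 lower. Of 30 axon guidance genes 7 were called higher, led by Robo1 and Sema3a, and 1 lower, with 6 higher under median-of-ratios scaling and 13 with the block. Of 25 tested Hox genes 6 were called higher and 5 were peaks, all in the Hoxa cluster, with Hoxa2 and Hoxa3 in 1 row, and 3 remained called under median-of-ratios scaling. None of 23 immediate early and stress genes and none of 17 interferon and antigen presentation genes was called in limma. At an unadjusted p under 0.05, 1 of each list was lower and 0 were higher.

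**Figure D5:**
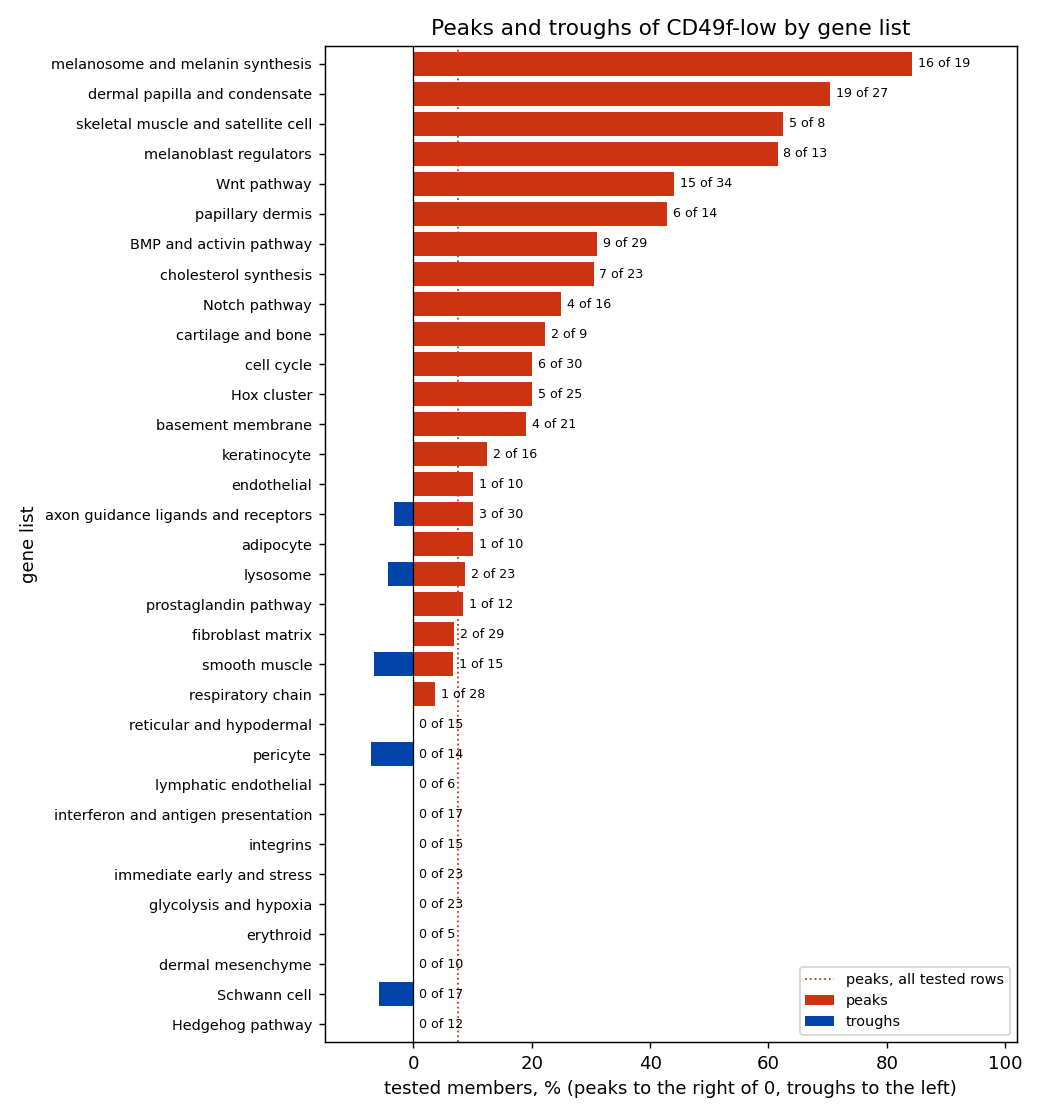
For each gene list with at least 5 tested members, the share that were peaks (red, to the right of 0) and troughs (blue, to the left) of CD49f-low is drawn in percent of tested members, with the number of peaks beside each bar. The dotted line marks the 7.60% of all 20523 rows. Melanosome genes (16 of 19), dermal papilla genes (19 of 27), skeletal muscle genes (5 of 8) and melanoblast regulators (8 of 13) reach farthest to the right.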

How the data were processed

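Expression was measured in 9 libraries, 3 for each of 3 sorted gates, which their titles name. The authors deposited 1 table of FPKM values with a column per library, which was used as log2(FPKM + 1) with no further scaling. The tools were TopHat2, StringTie and FastQC with build GRCm38, per the submitters' processing notes, and versions and filters are not given in the sources used here. Strand use in counting is not stated, so rows with several symbols and overlapping or antisense genes are uncertain.

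A group-means model was fitted with limma 3.58.1 in R 4.3.3 (mean-variance trend, 6 residual degrees of freedom). Adjusted p-values are Benjamini-Hochberg over the 20523 rows with at least 1 FPKM in at least 3 libraries. The contrast of high with negative was added after seeing the data and is descriptive.

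Members of the 36 gene lists, the lists themselves and the tests were chosen with earlier results of these data known. Named genes were Itga6, Itgb1 and Itgb4, and the 15 peaks and 15 troughs of largest prominence with 1 symbol and 10 FPKM or more on average in the low gate or in both others, leaving out predicted genes. To these came up to 4 called members a list with the smallest adjusted p (2 abundant members where none was called) and all members of the melanosome, melanoblast and dermal papilla lists. Where the text names every gene behind a small count, those outside this rule were named after their values were seen. Some called members of the lists are counted but not reported here by name.

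Same-numbered libraries of different gates deviated together (r = 0.252 to 0.520, against -0.453 to 0.118 for different numbers), so the numbers pair the libraries, while the labels give no source for this. The pairing entered as an alternative, the replicate block. Other alternatives were the pseudocount, the filters, 2 scalings, no trend, each library left out and stricter definitions of peaks and troughs. On simulated data with 200 of 20523 rows changed, the low contrast recovered 78% of 2-fold and 99% of 4-fold changes, and 4.84% of calls were false. These rates describe the simulated rows only. The real libraries deviated together by number and had a median contrast of 0.17. Whether the rates hold for them, or for rows of low FPKM, was not tested. Python 3.11.15 with pandas 2.3.3 and numpy 2.4.6 served for the tables, and figures were drawn with matplotlib 3.10.9.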

Additional observations from a re-analysis of the deposited data

How the results depend on the processing

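Of 139 called named genes, 0 changed sign in any alternative, while 9 of the 21 that were not called did, such as Rab38, Snai2, Fgf7 and Tbx18. The median contrast of all rows went from 0.17 to -0.01 under median-of-ratios scaling and to about 0 under quantile normalization, which turned the balance of calls. With the replicate number as a block, which pairs libraries of the same number, called rows went from 2600 to 4886 (4033 higher, 853 lower), low against CD49f-neg from 3160 (15.4% of rows) to 5806 and low against CD49f-high from 3367 (16.4%) to 5309. A filter of at least 5 FPKM in 3 libraries, which tests fewer rows, gave 946 calls (733 higher, 213 lower), 540 peaks, 61 troughs, 1358 calls against CD49f-neg and 1323 against CD49f-high. Median-of-ratios scaling gave 906 higher and 929 lower calls, 662 peaks, all among the 1560, and 365 troughs, which held all 116. Quantile normalization gave 943 higher and 962 lower calls, 695 peaks, 361 troughs and 2044 calls against CD49f-neg. A contrast of at least 1 log2 unit left 517 calls (438 higher, 79 lower), a prominence of at least 1 left 259 peaks and 6 troughs, and a call against each other gate left 821 peaks and 42 troughs.

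Leaving out each library in turn gave 1193 to 3116 calls, 894 to 2462 higher, 291 to 654 lower, 810 to 2004 peaks, 82 to 178 troughs, 1614 to 3764 calls against CD49f-neg and 2201 to 3585 against CD49f-high. The calls fell by over 1.5 times without CD49f-low 1 (1494), CD49f-low 2 (1432) and CD49f-low 3 (1193), and peaks without CD49f-low 2 (999) and CD49f-low 3 (810), where 1 library fewer enters the low gate. Troughs rose to 178 without CD49f-high 1. Calls against CD49f-neg fell to 1614 without CD49f-neg 3, 1726 without CD49f-low 2 and 1681 without CD49f-low 3, and those against CD49f-high to 2201 without CD49f-low 3. The cause of these shifts was not tested.

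All 15 named peaks kept their call in all 16 alternatives, as did 15 of the 16 called melanosome genes, 8 of 9 melanoblast regulators and 21 of 23 dermal papilla genes in those that tested them. The exceptions were Hps4, Sox10, Vcan and the Trps1 row. Of the named genes, the replicate block added the calls of Ap3b1, Cd68, Gli1, Igfbp4 and Met and removed none. The 3 libraries a gate and an unknown absolute depth limit what low rows can show.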

Other observations

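Further genes of the low gate, named after their values were seen, were the 9 peaks with 1 symbol and a prominence of at least 2 that lay outside the naming rule. Cd24a, a surface glycoprotein used to sort epithelial progenitors, was by far the most abundant, at 177 ± 20 FPKM (SD, n = 3) in CD49f-low, 42.0 ± 1.4 in CD49f-neg and 22.4 ± 7.8 in CD49f-high. Bace2, a protease that cleaves PMEL in melanocytes, had 10.2, 11.9 and 11.9 FPKM in CD49f-low, 1.60 to 1.76 in CD49f-neg and 1.80 to 2.01 in CD49f-high. Myo7a, a myosin of pigment epithelium and hair cells, had 8.36 to 11.1 FPKM against 0.481 to 0.859 and 0.991 to 1.41. Tspan10, a tetraspanin, had 5.55 FPKM and each CD49f-neg library listed it at 0. Syt4, Glrb, Draxin and Lrrn1, genes known from neurons, had means of 7.42, 5.05, 6.84 and 18.1 FPKM in the low gate and at most 0.406, 0.192, 0.621 and 3.44 in the others. Tspan10, Syt4, Glrb and Draxin had passed the filter through the low gate alone, so they had to be higher there. Smoc1, a BMP modulator of basement membranes, had 19.4 to 23.8 FPKM in CD49f-low and 10.6, 2.63 and 0.904 in CD49f-high, where CD49f-high 1 stood above the other libraries of its gate.

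Cdk2, a cell cycle kinase, lies on chromosome 10 on the strand opposite to Pmel, and 1207 bases separate the 2 genes. It had 22.3, 26.2 and 29.9 FPKM in CD49f-low, 4.94 to 8.29 in CD49f-neg and 7.19 to 8.97 in CD49f-high (contrast 1.68 ± 0.15, SE, adjusted p = 0.000174, limma). As Cdk2 is a peak, its low gate did not overlap the others by definition. The labels do not state strand use in counting, so Cdk2 is uncertain where its reads could meet those of Pmel. Pmel was at 0.306 to 0.345 FPKM in CD49f-neg and peaked in CD49f-low, as Cdk2 did. Whether Pmel reads added to the level of Cdk2 was not tested.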
